A study of Mus musculus with 5 samples.

Results

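Imprinted genes outside the Igf2-H19 domain were described in cultured kidney progenitors that lack the ribonuclease Dis3l2 and in their wild-type counterparts. The set held 44 mouse genes known to be imprinted, with Igf2, H19 and Igf2r left out, of 53927 genes in the deposited table. They lie in 17 clusters on 10 chromosomes. Of the 44, 37 were measured, meaning that they had at least 0.5 CPM (assigned reads scaled per M of an effective library size) in at least 2 libraries. In no measured member did the Dis3l2-deficient and wild-type cultures differ past the threshold over all genes. The cell cycle inhibitor gene Cdkn1c came nearest to it. It averaged 50.8 ± 7.66 CPM in KO cultures (SD, n = 3) and 29.8 ± 3.37 CPM in WT cultures (SD, n = 2).

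The cultures were Dis3l2-/- (KO, 3 libraries) or, as controls, Dis3l2+/+ (WT, 2 libraries). All libraries came from C57BL/6J embryos, as nephron progenitors in primary culture, grown by a published culture method and passaged 1 time. Dis3l2 is an exoribonuclease that degrades uridylated RNA from the 3' end, and its loss in people causes the overgrowth disorder Perlman syndrome. The sources used here give neither the part of the gene removed in the KO embryos nor whether the libraries of a genotype are from different embryos. By Xist, given below, each genotype held male and female libraries, so its libraries were not all from the same embryo. The p-values measure a spread between libraries whose biological and technical parts are not known.

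Genomic imprinting is the expression of a gene mainly from the copy inherited from the mother or mainly from that inherited from the father. Imprinted genes lie in clusters, each governed by a control region that is methylated on the copy from a single parent, and a long noncoding RNA made from the unmethylated copy often silences its neighbours. Many imprinted genes regulate fetal growth, with paternally expressed genes often promoting it and maternally expressed genes often restraining it. The C57BL/6J strain is inbred, so the deposited values do not separate the parental copies. The parental labels below are general knowledge of mouse imprinting and are not measured here. In bulk RNA, fewer cells of a type and less RNA per cell cannot be told apart.

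Promoter sequences were examined first, because neighbours in a cluster can share a control region. RefSeq promoters of build GRCm38.p6, from 250 bases before to 50 bases after the start, were matched by symbol for 35 of the 44 members, in 49 windows. Peg3 and Usp29 start close together on opposite strands, and 263 of the 300 bases of their windows are the same stretch of DNA. The Peg3 window, chr7:6730370-6730669 on the minus strand, is shown for that shared stretch. The Kcnq1ot1 window, chr7:143296498-143296797 on the minus strand, is the start of the noncoding RNA that silences the Cdkn1c cluster. Capitals mark CCAAT boxes, written CCAAT or, on the other strand, ATTGG.

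Peg3: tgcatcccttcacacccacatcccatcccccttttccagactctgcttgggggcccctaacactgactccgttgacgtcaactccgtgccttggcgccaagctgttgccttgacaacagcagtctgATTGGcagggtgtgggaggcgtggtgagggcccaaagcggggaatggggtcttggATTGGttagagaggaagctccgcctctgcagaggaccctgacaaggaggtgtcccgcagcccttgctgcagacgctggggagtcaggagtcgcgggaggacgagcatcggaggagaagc
Kcnq1ot1: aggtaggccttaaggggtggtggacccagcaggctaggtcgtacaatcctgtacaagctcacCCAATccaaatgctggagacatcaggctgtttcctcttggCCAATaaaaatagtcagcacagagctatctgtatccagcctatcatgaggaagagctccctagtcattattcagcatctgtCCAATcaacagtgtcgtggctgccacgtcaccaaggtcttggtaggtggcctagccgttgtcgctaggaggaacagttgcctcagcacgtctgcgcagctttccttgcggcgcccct

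The Kcnq1ot1 window held 3 CCAAT boxes and the Peg3 window 2. Among members 17 of 49 windows (34.7%) held this motif, and among all 32851 RefSeq promoter windows 37.4% did. The Plagl1 window, chr10:13090582-13090881 on the plus strand, and a Mest window, chr6:30737800-30738099 on the plus strand, are shown for the motif of ZFP57, the zinc finger protein that binds methylated imprinting control regions. Capitals mark that motif, TGCCGC or, on the other strand, GCGGCA.

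Plagl1: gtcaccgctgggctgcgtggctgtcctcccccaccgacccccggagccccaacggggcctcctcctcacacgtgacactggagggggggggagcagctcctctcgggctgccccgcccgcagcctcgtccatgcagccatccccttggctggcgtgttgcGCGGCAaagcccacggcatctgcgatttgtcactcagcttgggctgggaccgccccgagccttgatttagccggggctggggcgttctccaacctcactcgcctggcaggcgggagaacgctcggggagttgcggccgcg
Mest: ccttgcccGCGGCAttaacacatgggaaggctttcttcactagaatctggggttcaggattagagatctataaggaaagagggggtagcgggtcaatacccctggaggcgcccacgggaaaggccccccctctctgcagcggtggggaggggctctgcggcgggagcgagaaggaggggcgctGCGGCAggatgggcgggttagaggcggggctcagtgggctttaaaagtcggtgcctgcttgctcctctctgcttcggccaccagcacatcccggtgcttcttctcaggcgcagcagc

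The ZFP57 motif occurred 1 time in the Plagl1 window and 2 times in the Mest window. Among members 11 of 49 windows (22.4%) held it, and among all promoter windows 11.6% did. Of the 11, 2 are Mest windows that overlap almost fully. Member windows had a median GC content of 57.7% and 16 CpG sites, against 52.7% and 7 in all windows, and the motif itself contains a CpG. A match to these letters is not evidence of binding.

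Some members carry microRNAs inside them. Mest holds the hairpin of miR-335, and Mirg, a noncoding RNA gene of the Meg3 cluster, holds 14 hairpins with 26 mature microRNAs in RefSeq. The miR-335 strands are shown because their host is the most abundant member, and miR-453 and miR-496a-5p because they are the pair within Mirg with the same seed. Capitals mark the seed, bases 2 to 8.

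mmu-miR-335-5p: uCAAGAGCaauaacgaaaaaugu
mmu-miR-335-3p: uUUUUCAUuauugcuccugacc
mmu-miR-453: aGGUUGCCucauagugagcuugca
mmu-miR-496a-5p: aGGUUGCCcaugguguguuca

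The libraries held 19.61 M to 49.25 M assigned reads in KO cultures and 22.34 M and 28.26 M in WT cultures, counted from the size of the smallest steps between values. Dis3l2 itself was at 6.5, 4.93 and 4.70 CPM in KO libraries and at 16.04 and 12.2 CPM in WT libraries, with no overlap (log2 fold change -1.24, standard error 0.21, limma adjusted p = 0.9545 by Benjamini-Hochberg). All 10 nephron progenitor markers were detected, and their summed level was 745 to 894 CPM in KO and 730 to 928 CPM in WT libraries. Among these, Six2 lay between 18.58 and 31.86 CPM in KO libraries and at 18.97 and 18.82 CPM in WT libraries. Cited1 varied more, at 17.05, 4.74 and 2.73 CPM in KO and 15.16 and 1.4 CPM in WT libraries, with replicate 1 the highest of each genotype. Renal stroma markers were present too, all 8 of 8, at 764, 1780 and 1570 CPM in KO and 783 and 1480 CPM in WT libraries. Leukocyte markers summed to 4.95 to 5.69 CPM in KO and 7.17 to 7.65 CPM in WT libraries, without overlap. The endothelial sum was 39.0 to 59.2 CPM in KO and 47.7 to 71.2 CPM in WT libraries, the podocyte sum 4.55 to 7.52 and 4.46 to 10.8 CPM, and the ureteric bud sum, with Wnt9b under 3 reads, 14.6 to 22.1 and 12.5 to 16.2 CPM. The neuron and glia sum, with Sox10 and Elavl3 under 3 reads, was 3.40 to 3.76 CPM in KO and 2.67 to 5.71 CPM in WT libraries, and the muscle sum, with Myod1 and Myf5 under 3 reads, was 0.81 to 1.16 and 0.14 to 1.97 CPM. Mitochondrially encoded RNA took 32.8% to 34.2% of the summed values in KO and 40.2% to 42.0% in WT libraries. By Xist, KO replicate 3 and WT replicate 1 were male and the other 3 libraries female.

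The question asked of these genes was whether loss of Dis3l2 goes with altered imprinted gene levels, by cluster or by parental copy. At an adjusted p under 0.05, none of the 37 measured members was called in either direction, while 0.00672% of the 14884 genes tested were called (limma with Benjamini-Hochberg adjustment). At an unadjusted p under 0.05, 1 member passed, Cdkn1c, which is 2.7% of the measured members, beside 2.77% of all genes tested. In the authors' deposited table, 17 genes had an FDR under 0.05, which is 0.0591% of the 28755 genes above 0 in any library, and none was a member. Also in the authors' deposited table, an unadjusted p under 0.05 was given to 3 members (Cdkn1c, Peg10 and Phlda2, the last with 2 reads at most in a library), beside 4.16% of those genes. In 2 members, Cdkn1c and Peg10, the lowest KO library exceeded the highest WT library, beside 7.85% of all genes tested. In 1 member, Commd1, the order was the opposite, beside 6.98%. With 3 libraries against 2, an exact two-sided permutation test cannot go below 0.1.

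The median log2 fold change over the measured members was 0.10, against 0.01 over all genes tested, and 23 had a positive value and 14 a negative one. That median was -0.04, with all genes at -0.10, when values were rescaled without mitochondrially encoded genes, so its sign rests on the scaling. The standard errors had a median of 0.20. The 95% interval stayed within 1 log2 unit of 0 in 29 of 37 members, reached above it in 7 and below it in 1. A 2-fold difference thus lay within the intervals of those members. The interval left out 0 for Cdkn1c alone.

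**Figure D1:**
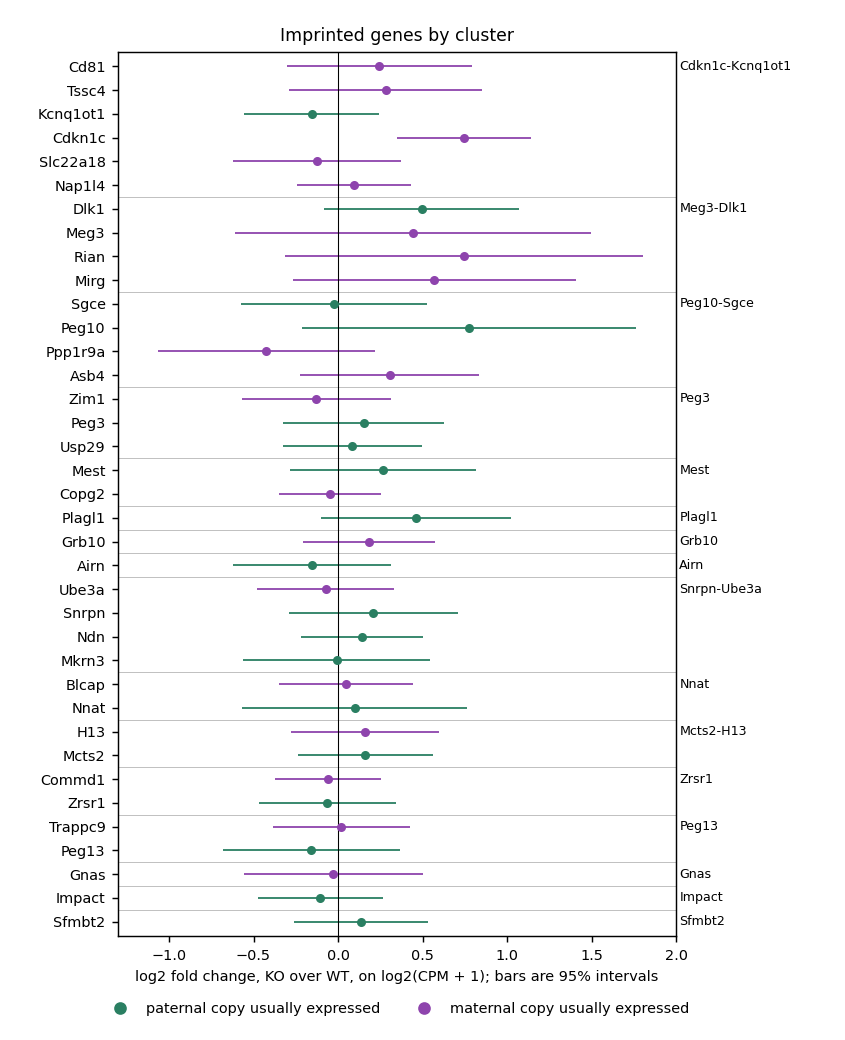
Log2 fold change of KO over WT on the log2(CPM + 1) scale for the 37 measured members, grouped by cluster. Points are estimates from limma, bars are 95% intervals, and colour gives the parental copy usually expressed. The intervals of all members except Cdkn1c cross 0.

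By parental copy there was little separation. The 18 measured members usually expressed from the paternal copy had a median log2 fold change of 0.12, with 11 positive and 7 negative. The 19 expressed from the maternal copy had a median of 0.10, with 12 positive and 7 negative. Members whose imprinting is known in most tissues (25 measured) had a median of 0.15, and those imprinted only in some tissues such as brain or placenta (12 measured) had 0.03. Within the widely imprinted members, 8 maternally expressed genes had a median of 0.38 and 17 paternally expressed genes 0.10, and 5 of those 8 (Cdkn1c, Slc22a18, Meg3, Rian and Mirg) belong to the Cdkn1c and Meg3 clusters described next. No test was made of these medians.

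The members covered more than 3 orders of magnitude in level per length of exon. Mest, which encodes a protein of the hydrolase fold, averaged 572.6 CPM per kb over the 5 libraries. Peg10, a gene derived from a retrotransposon and needed for the placenta, followed at 137.7 CPM per kb, then Peg3, a zinc finger gene, at 112.1. Grb10 and Asb4 were at 82.75 and 81.82 CPM per kb, and Cd81 at 72.27. Neighbours in that order often had overlapping libraries, as for Peg10 and Peg3 or for Grb10 and Asb4. Cdkn1c lay at 20.79 CPM per kb. The lowest measured members were Slc22a18 at 0.2554 and Sfmbt2 at 0.2377 CPM per kb.

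**Figure D2:**
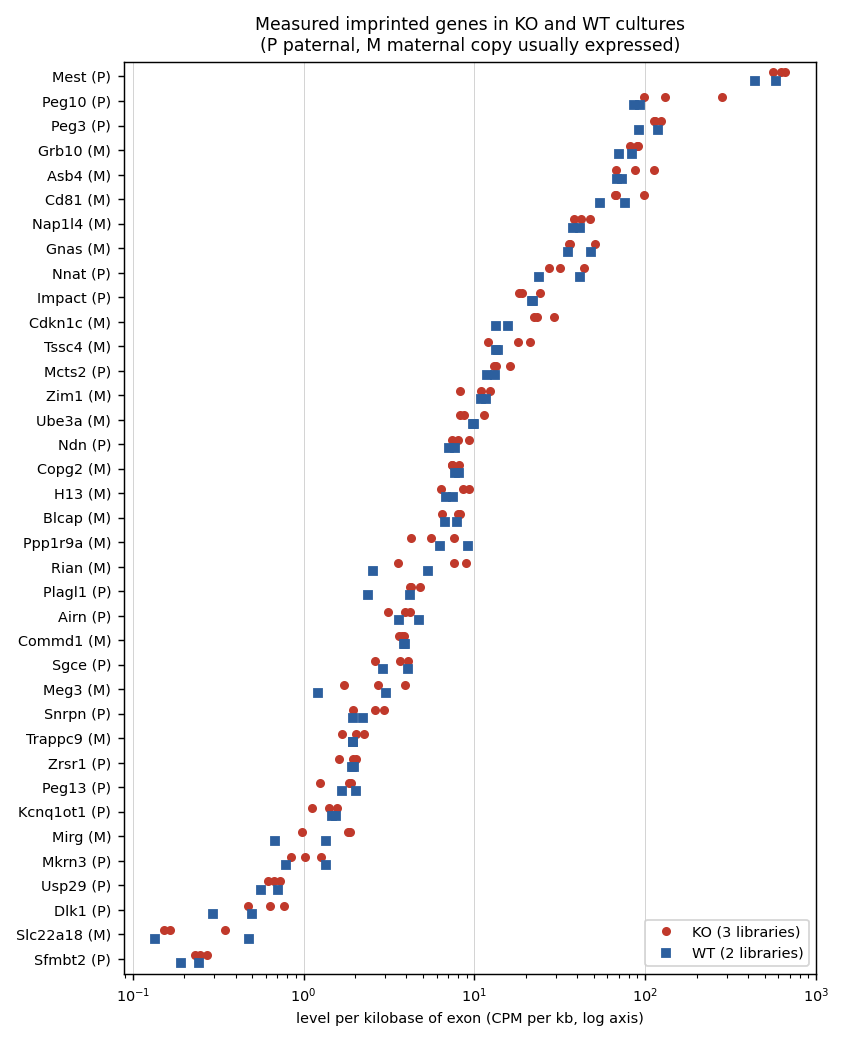
Level per kilobase of exon (CPM per kb, log axis) of the 37 measured members in each library, ordered by the mean over 5 libraries. Circles are KO and squares WT libraries, and P or M marks the parental copy usually expressed. Mest tops the order at 572.6 CPM per kb and Sfmbt2 ends it at 0.2377.

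The Cdkn1c-Kcnq1ot1 cluster on chromosome 7 has 9 members, of which 6 were measured. Cdkn1c (ENSMUSG00000037664.13, chr7:143458339-143461050, minus strand, GRCm38) encodes p57, an inhibitor of cyclin-dependent kinases that is maternally expressed and restrains growth. It was at 59.58, 45.50 and 47.31 CPM in KO libraries and at 32.14 and 27.38 CPM in WT libraries. All KO libraries stood above both WT libraries, with KO replicate 1 the highest. The KO mean was 1.71 times the WT mean, and the log2 fold change was 0.75 (standard error 0.17), with a 95% interval of 0.35 to 1.14. The unadjusted limma p was 0.0030 and the adjusted p, by Benjamini-Hochberg over all genes, 1.0. Leaving out any 1 library gave values between 0.63 and 0.86. In the authors' deposited table its log2 fold change was 0.77, at an FDR of 0.573. An antisense gene, Gm44732, covers 30.7% of the exon bases and averaged 0.08 CPM.

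Kcnq1ot1, the paternally expressed noncoding RNA that silences this cluster, is annotated as 1 exon of 93092 bases (chr7:143203458-143296549, minus strand). It was at 145.59, 104.67 and 131.77 CPM in KO libraries and at 136.94 and 144.63 CPM in WT libraries. The genotypes overlapped, and the log2 fold change was -0.16 (standard error 0.17). The ratio of Cdkn1c to Kcnq1ot1 within a library was 0.409, 0.435 and 0.359 in KO and 0.235 and 0.189 in WT libraries, without overlap. The share of mitochondrially encoded RNA and the leukocyte marker sum, given above, also did not overlap between genotypes. When values were rescaled without mitochondrially encoded genes, the log2 fold change of Cdkn1c was 0.61. Beyond that rescaling, the part of these 2 features in the Cdkn1c difference was not tested. Podocytes, which express Cdkn1c in the kidney, had a marker sum of 4.55, 7.52 and 4.60 CPM in KO and 4.46 and 10.8 CPM in WT libraries, with overlap.

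The other measured genes of the cluster overlapped between genotypes. Cd81, which encodes a tetraspanin of the cell surface, was at 190.89, 282.35 and 193.51 CPM in KO libraries and at 155.85 and 217.79 CPM in WT libraries (log2 fold change 0.24, standard error 0.23). That value was 0.00 without WT replicate 1 and 0.48 without WT replicate 2. Tssc4, which encodes a factor of spliceosome assembly, was at 39.06, 33.37 and 22.01 CPM in KO libraries and at 24.72 and 25.35 CPM in WT libraries (0.28, standard error 0.24). KO replicate 3 lay below both WT libraries for Tssc4, while KO replicates 1 and 2 lay above them.

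Nap1l4, a histone chaperone gene, was at 146.25, 129.62 and 118.64 CPM in KO libraries and at 129.10 and 116.34 CPM in WT libraries. Its log2 fold change of 0.10 became -0.04 when values were rescaled without mitochondrially encoded genes. Slc22a18, which encodes a membrane transporter, was at 0.26, 0.59 and 0.28 CPM in KO libraries and at 0.23 and 0.81 CPM in WT libraries, and no library held more than 23 of its reads (log2 fold change -0.12, standard error 0.21).

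The other 3 members of the cluster were near or at the detection floor. The level of 3 reads was 0.0639, 0.0936 and 0.141 CPM in KO libraries and 0.139 and 0.105 CPM in WT libraries. Phlda2, a maternally expressed gene that restrains placental growth, was at 0, 0 and 0 CPM in KO and at 0.09 and 0.07 CPM in WT libraries, which is 2 reads at most. In the authors' deposited table its unadjusted p was 0.00535, a value that rests on those few reads. Ascl2, a placental transcription factor gene, had at most 3 reads and the potassium channel gene Kcnq1 at most 4.

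The Meg3-Dlk1 cluster on chromosome 12 makes maternal noncoding RNAs and paternal protein genes. All 4 measured members had positive log2 fold changes, with a median of 0.53, and none passed the test. Meg3 (chr12:109541001-109571726, plus strand), a noncoding RNA, was at 31.35, 70.64 and 49.61 CPM in KO libraries and at 22.03 and 55.15 CPM in WT libraries. The WT libraries differed from each other 2.50-fold. KO replicates 1 and 3 lay between them, and KO replicate 2 lay above both. The log2 fold change was 0.44 (standard error 0.44). It was -0.20 without WT replicate 1 and 1.09 without WT replicate 2.

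Rian, which hosts small nucleolar RNAs, was at 65.49, 138.85 and 163.41 CPM in KO libraries and at 46.74 and 97.84 CPM in WT libraries. Its log2 fold change was 0.75 (standard error 0.45), with 0.22 without WT replicate 1 and 1.27 without WT replicate 2. Mirg was at 7.18, 13.66 and 13.21 CPM in KO libraries and at 4.96 and 9.87 CPM in WT libraries (log2 fold change 0.57, standard error 0.35), with a log2 fold change of 0.14 without WT replicate 1 and 1.00 without WT replicate 2. For both RNAs KO replicates 2 and 3 lay above both WT libraries and KO replicate 1 lay between them. KO replicate 1 and WT replicate 1 were the lowest of their genotypes for Meg3, Rian and Mirg.

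The renal stroma marker sum was also lowest in KO replicate 1 and WT replicate 1, at 764 and 783 CPM, and at 1480 to 1780 CPM in the other libraries. Within it Col1a1 was at 283.72, 656.04 and 401.78 CPM in KO and 227.08 and 649.56 CPM in WT libraries. Acta2 was likewise lowest in replicate 1 of each genotype. Aldh1a2, of the same list, was at 178.3, 139.44 and 127.86 CPM in KO and 323.35 and 244.09 CPM in WT libraries. It was highest in replicate 1 of each genotype, the reverse of Col1a1, so the markers did not move as a set. Whether stroma-like cells take part in the spread of the cluster was not tested. Relative to Meg3 the other noncoding RNAs overlapped between genotypes. Mirg stood at 0.193 to 0.266 of Meg3 in KO libraries and at 0.179 and 0.225 in WT libraries. Rian was at 2.09, 1.97 and 3.29 times Meg3 in KO and 2.12 and 1.77 times in WT libraries, with KO replicate 3 apart from the rest.

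Dlk1, the paternally expressed gene of a membrane protein related to Notch ligands, was at 4.35, 3.62 and 2.68 CPM in KO libraries and at 1.67 and 2.81 CPM in WT libraries. KO replicate 3 lay below WT replicate 2. The log2 fold change was 0.50 (standard error 0.24), with 0.24 without WT replicate 1 and 0.75 without WT replicate 2. Relative to Meg3, Dlk1 was at 0.139, 0.0512 and 0.054 in KO libraries and at 0.0758 and 0.051 in WT libraries. Rtl1, a placental gene derived from a retrotransposon, had at most 6 reads in any library.

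None of the microRNA hairpins inside Meg3, Rian and Mirg reached 0.5 CPM in any library. The highest value among the 14 hairpins of Mirg, including those of miR-453 and miR-496a shown above, was 0.37 CPM. Libraries of this kind lose most very short RNAs in size selection, so these values give no mature microRNA levels. The miR-335 hairpin inside Mest did reach 0.5 CPM, at 15.17, 17.34 and 16.69 CPM in KO libraries and 16.09 and 12.18 CPM in WT libraries. This too gives no mature microRNA level. The hairpin shares 0 exon bases with Mest, and whether its reads come from host RNA was not tested. Its ratio to Mest stayed between 0.00644 and 0.00707 in all 5 libraries.

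**Figure D3:**
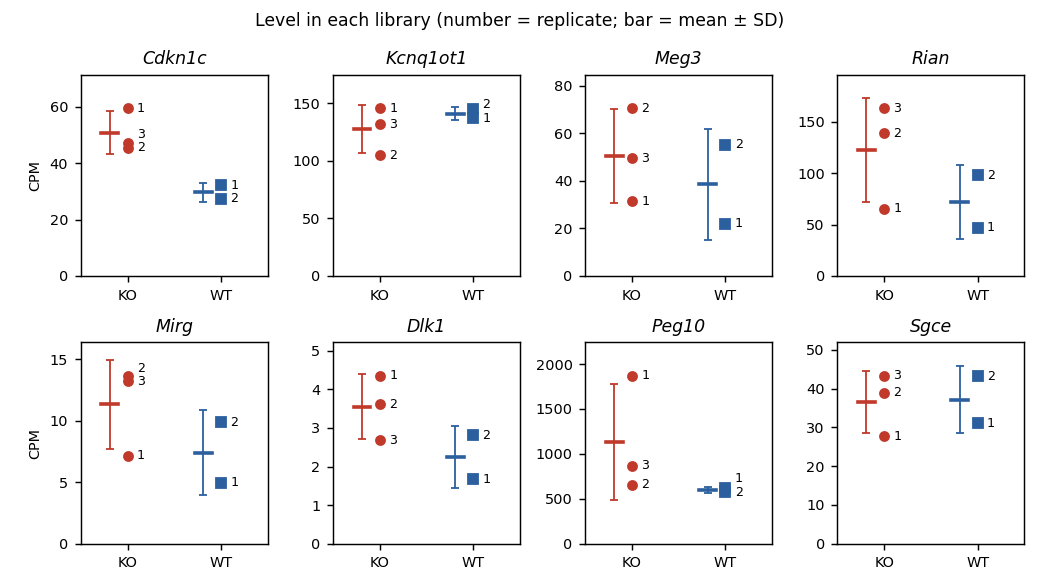
Level in each library (CPM, axes from 0) for Cdkn1c, Kcnq1ot1, the 4 measured members of the Meg3-Dlk1 cluster, Peg10 and Sgce. Numbers are replicates, and bars are the mean ± SD of 3 KO and 2 WT libraries. Cdkn1c and Peg10 have all KO libraries above both WT libraries, with Peg10 at 1868 CPM in KO replicate 1.

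Peg10 and Sgce start side by side on chromosome 6 and share a control region. Peg10 (chr6:4747306-4760517, plus strand) was at 1868.01, 655.32 and 870.67 CPM in KO libraries and at 619.89 and 575.45 CPM in WT libraries. All KO libraries stood above both WT libraries, but KO replicate 2 only slightly, and KO replicate 1 far above the rest. The log2 fold change was 0.77 (standard error 0.42, limma adjusted p = 1.0 by Benjamini-Hochberg), and it was 0.34 without KO replicate 1. In the authors' deposited table its log2 fold change was 0.92, at an FDR of 1.0. Means were 1131 ± 647 CPM in KO (SD, n = 3) and 598 ± 31.4 CPM in WT cultures (SD, n = 2).

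Sgce, the epsilon-sarcoglycan gene, which is paternally expressed like Peg10, lay between 27.75 and 43.26 CPM in KO libraries and between 31.02 and 43.18 CPM in WT libraries. Its log2 fold change was -0.02 (standard error 0.23). The ratio of Peg10 to Sgce was 67.3 in KO replicate 1, 16.8 and 20.1 in the other KO libraries, and 20.0 and 13.3 in WT libraries. KO replicate 1 stood apart in Peg10 and was the lowest KO library in Sgce. With values rescaled without mitochondrially encoded genes the genotypes overlapped for Peg10, and 1 member, Cdkn1c, had all KO libraries above WT. Asb4, an ankyrin repeat gene of the same cluster, ranged from 265.19 to 444.39 CPM in KO libraries and from 268.35 to 287.27 CPM in WT libraries (log2 fold change 0.31, standard error 0.22). Its highest library was also KO replicate 1. The Peg10 to Asb4 ratio was 4.2, 2.47 and 2.54 in KO and 2.31 and 2.0 in WT libraries, without overlap. Ppp1r9a, the gene of the actin-binding protein neurabin, ranged from 61.88 to 110.49 CPM in KO libraries and from 91.52 to 133.83 CPM in WT libraries, and its log2 fold change of -0.42 (standard error 0.27) became -0.15 without WT replicate 1 and -0.70 without WT replicate 2.

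The Peg3 cluster, with Peg3, Usp29 and Zim1, lies at the start of chromosome 7. Peg3, a paternally expressed zinc finger gene, was at 1498.29, 1510.90 and 1646.21 CPM in KO libraries and at 1578.94 and 1231.08 CPM in WT libraries (log2 fold change 0.15, standard error 0.20). Usp29, the gene of a ubiquitin protease, was at 13.21, 12.10 and 11.24 CPM in KO libraries and at 12.80 and 10.15 CPM in WT libraries (0.09, standard error 0.17). Both genes overlapped between genotypes, with WT replicate 2 the lowest library of each. The estimate for Usp29 became -0.04 when values were rescaled without mitochondrially encoded genes.

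The 2 genes that share the promoter stretch printed above had a proportion that overlapped between genotypes. Usp29 stood at 0.00882, 0.00801 and 0.00683 of Peg3 in KO libraries and at 0.00811 and 0.00824 in WT libraries. Zim1, a maternally expressed zinc finger gene next to them, was at 66.81, 88.42 and 99.27 CPM in KO libraries and at 94.55 and 88.64 CPM in WT libraries (log2 fold change -0.13, standard error 0.18). Its lowest value was in KO replicate 1, and the genotypes overlapped.

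Among the members outside the Cdkn1c-Kcnq1ot1, Meg3-Dlk1 and Peg10-Sgce clusters, 23 of 26 were measured. Of these 13 had positive and 10 negative log2 fold changes, with a median of 0.05 and a range of -0.16 to 0.46. The most abundant was Mest, at 2204.51, 2451.53 and 2590.19 CPM in KO libraries and at 2307.76 and 1740.04 CPM in WT libraries (0.27, standard error 0.23). KO replicate 1 lay between the WT libraries. Copg2, a coatomer gene that faces Mest on the other strand, ranged from 37.93 to 41.76 CPM in KO libraries and from 39.35 to 41.78 CPM in WT libraries. The Mest to Copg2 ratio was 58.0, 64.6 and 62 in KO and 55.2 and 44.2 in WT libraries, without overlap. The 2 genes share 912 exon bases on opposite strands, 17.8% of those of Copg2, so reads there are attributed with certainty only if strand was used in counting, which the labels do not state.

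Several members act directly on growth signalling. Grb10, a maternally expressed adaptor that restrains insulin and IGF receptor signalling, was at 819.17, 738.41 and 808.36 CPM in KO libraries and at 758.73 and 635.76 CPM in WT libraries (log2 fold change 0.18, standard error 0.16). That value was 0.05 without WT replicate 2, and 0.04 when values were rescaled without mitochondrially encoded genes. Gnas, the gene of the stimulatory G protein subunit, was at 566.69, 407.97 and 398.49 CPM in KO libraries and at 537.31 and 394.13 CPM in WT libraries (-0.03, standard error 0.22). Plagl1, a paternally expressed zinc finger transcription factor gene, ranged from 32.62 to 37.36 CPM in KO libraries and from 18.54 to 32.79 CPM in WT libraries. The genotypes overlapped in all 3 genes. For Plagl1 the log2 fold change was 0.46 (standard error 0.24), and it was 0.07 without WT replicate 2 and 0.86 without WT replicate 1.

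Igf2, the growth factor gene left out of the set, was at 10.87, 12.76 and 7.29 CPM in KO libraries and at 1.53 and 4.28 CPM in WT libraries (log2 fold change 1.60, standard error 0.36). Set beside it, Cdkn1c at 0.75 had the smaller difference and the smaller standard error. Airn, the noncoding RNA antisense to Igf2r, ranged from 11.17 to 15.00 CPM in KO libraries and from 13.02 to 17.07 CPM in WT libraries (-0.15, standard error 0.20). Its ratio to Igf2r was 0.0301, 0.0211 and 0.0249 in KO and 0.0375 and 0.0302 in WT libraries, with the nearest KO and WT libraries almost equal. Slc22a3, an organic cation transporter gene of that cluster, had 1 read at most.

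Several imprinted genes lie within another member, and their proportion to it overlapped between genotypes. Mcts2, which encodes a translation factor, lies inside H13, the gene of a signal peptide peptidase, and stood at 0.147 to 0.210 of it in KO libraries and at 0.163 and 0.197 in WT libraries. Zrsr1, a splicing factor gene inside Commd1, stood at 0.341 to 0.398 of it in KO libraries and at 0.370 and 0.385 in WT libraries. Commd1, which takes part in copper balance and protein trafficking, was at 21.35, 22.33 and 22.90 CPM in KO libraries and at 22.91 and 23.42 CPM in WT libraries. The KO libraries all lay below the WT libraries, by 0.01 CPM at the nearest point, and the log2 fold change was -0.06 (standard error 0.13). With median-of-ratios size factors the genotypes overlapped. Reads of Mcts2 and Zrsr1 can also match their parent genes elsewhere in the genome, and the sources used here do not say how such reads were counted. Nnat, the gene of a small membrane protein of nerve and endocrine cells inside Blcap, was at 2.32 to 3.27 times Blcap in KO libraries and at 1.82 and 3.67 times in WT libraries. The noncoding Peg13 was at 0.367 to 0.675 of Trappc9, the trafficking subunit gene that contains it, in KO libraries and at 0.520 and 0.621 in WT libraries.

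Apart from Commd1, the levels of these genes overlapped between genotypes as well. Mcts2 ranged from 11.94 to 14.75 CPM in KO and from 10.85 to 12.01 CPM in WT libraries, and H13 from 56.90 to 82.92 CPM in KO and from 60.84 to 66.68 CPM in WT libraries. Zrsr1 ranged from 7.27 to 9.12 CPM in KO and from 8.67 to 8.81 CPM in WT libraries. Nnat ranged from 50.13 to 80.02 CPM in KO and from 43.64 to 75.63 CPM in WT libraries, and Blcap, a gene lost in some bladder cancers, from 19.75 to 25.17 CPM in KO and from 20.59 to 24.01 CPM in WT libraries. Nnat averaged 62.81 ± 15.45 CPM in KO (SD, n = 3) and 59.63 ± 22.62 CPM in WT cultures (SD, n = 2). Its spread within each genotype was wider than the distance between the means. Peg13 ranged from 5.90 to 8.98 CPM in KO and from 7.98 to 9.62 CPM in WT libraries, and Trappc9 from 13.31 to 17.90 CPM in KO and from 15.35 to 15.48 CPM in WT libraries. Their log2 fold changes lay between -0.16 for Peg13 and 0.16 for Mcts2.

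**Figure D4:**
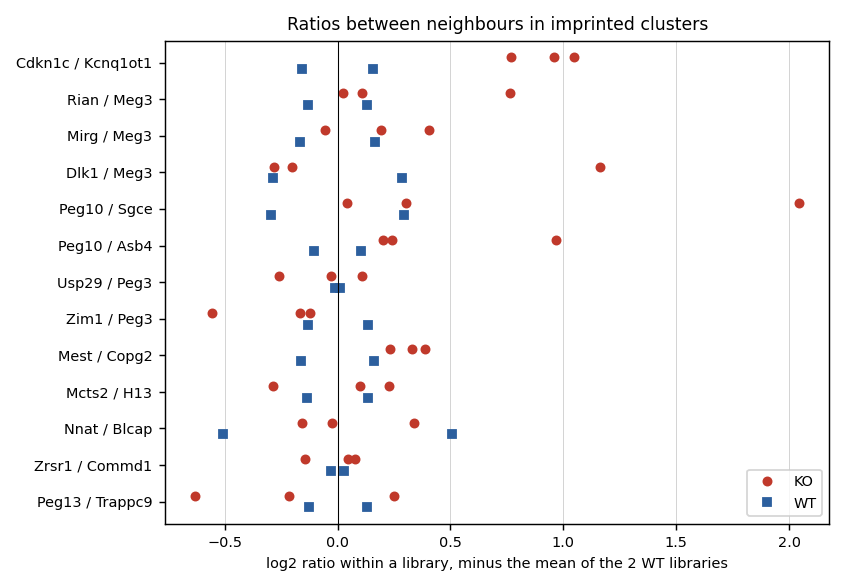
Log2 ratio between neighbouring imprinted genes in each library, minus the mean of the 2 WT libraries. Circles are KO and squares WT libraries. The Cdkn1c to Kcnq1ot1 ratio is above both WT libraries in all 3 KO libraries, and so are Mest to Copg2 and Peg10 to Asb4. Peg10 to Sgce is high in KO replicate 1, at 67.3 before the log. The overlap of ratios was not set beside that of other gene pairs.

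The Snrpn-Ube3a cluster is known from Prader-Willi and Angelman syndromes, and 4 of its 5 members were measured. Ube3a, the gene of a ubiquitin ligase, ranged from 170.95 to 235.36 CPM in KO libraries and was at 205.66 and 201.19 CPM in WT libraries (log2 fold change -0.07, standard error 0.17). Snhg14, the RNA that silences it in neurons, shares 8.7% of the Ube3a exon bases on the other strand and ranged from 3.79 to 7.85 CPM in KO libraries and from 6.53 to 8.25 CPM in WT libraries. Ndn, which encodes necdin, ranged from 27.32 to 34.56 CPM in KO libraries and from 26.29 to 28.61 CPM in WT libraries. Snrpn, a splicing protein gene, lay at 4.18 to 6.40 CPM in KO libraries and 4.18 and 4.82 CPM in WT libraries. It shares 27.3% of its exon bases with Gm38393, so its level may be split between the annotations. Gm38393 was at 7.65, 8.33 and 11.52 CPM in KO and 12.10 and 9.09 CPM in WT libraries. Its log2 fold change was -0.20 (standard error 0.22), and that of Snrpn was 0.21 (standard error 0.21). Mkrn3, a makorin gene, lay at 2.16 to 3.2 CPM in KO and 2.00 and 3.43 CPM in WT libraries, and Magel2 had no read.

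The remaining members complete the set. Impact, a regulator of the amino acid sensor GCN2, ranged from 93.61 to 123.58 CPM in KO libraries and from 111.52 to 113.00 CPM in WT libraries (log2 fold change -0.11, standard error 0.16). Sfmbt2, a Polycomb group gene, ranged from 2.12 to 2.49 CPM in KO libraries and from 1.76 to 2.23 CPM in WT libraries (0.14, standard error 0.17). Rasgrf1, a Ras exchange factor gene, had 1 read at most, so 7 members in all were not measured.

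The spread between libraries was also set beside that of other genes, with no test. Among the 29 members at 10 CPM or more, the median ratio of the highest to the lowest library was 1.46, and among all 8210 such genes it was 1.35. The 2 WT libraries differed by at least 1.5-fold in 4 of the 29 (13.8%), and in 5.5% of all such genes. Meg3, Rian, Plagl1 and Nnat were these members, with Meg3 and Rian higher in WT replicate 2 and Plagl1 and Nnat higher in WT replicate 1. For these the difference between genotypes was no larger than the spread within WT.

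Genes that set, protect or read imprints were described from a separate list of 28, of which 25 were measured. None of these was called (limma, Benjamini-Hochberg), and none had an unadjusted p under 0.05. Their log2 fold changes had a median of -0.01, with 12 positive and 13 negative. Zfp57, whose motif is marked in the promoters above, was at 38.68, 44.35 and 42.84 CPM in KO libraries and at 51.43 and 46.06 CPM in WT libraries (log2 fold change -0.21, standard error 0.13). The KO libraries were all lower than the WT libraries, as in 6.98% of all genes tested. Mbd3, of a histone deacetylase complex, was at 42.09, 32.25 and 22.67 CPM in KO libraries and at 22.26 and 23.31 CPM in WT libraries (0.44, standard error 0.25).

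Ehmt2, a histone H3K9 methyltransferase gene, was at 95.45, 83.37 and 48.01 CPM in KO libraries and at 57.36 and 49.46 CPM in WT libraries (0.44, standard error 0.29). Dnmt1, the maintenance DNA methyltransferase, was at 233.83, 188.97 and 178.27 CPM in KO libraries and at 180.20 and 168.75 CPM in WT libraries (0.19, standard error 0.16). For Mbd3, Ehmt2 and Dnmt1 KO replicate 1 was the highest library and the genotypes overlapped. Dnmt3l, Dppa3 and Zfp42, genes of germ cells and early embryos, were not measured.

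A list of 27 other imprinted genes gave a like picture, with 17 measured, 10 positive and 7 negative, a median log2 fold change of 0.05, none called by limma and none with an unadjusted p under 0.05. Slc38a4, an amino acid transporter gene, was at 147.93, 174.93 and 219.09 CPM in KO libraries and at 136.66 and 134.70 CPM in WT libraries (0.39, standard error 0.18). Phactr2, a regulator of a protein phosphatase, was at 59.75, 55.14 and 64.19 CPM in KO libraries and at 53.88 and 46.30 CPM in WT libraries (0.25, standard error 0.14). In these 2 genes the KO libraries were all higher than the WT libraries, as in 7.85% of all genes tested, and the unadjusted limma p was 0.0692 and 0.114.

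Tnfrsf23, a decoy receptor gene, was at 1.49, 2.71 and 3.01 CPM in KO libraries and at 1.16 and 1.86 CPM in WT libraries (0.42, standard error 0.26). Nap1l5 was at 0.38, 0.78 and 0.71 CPM in KO libraries and at 1.21 and 0.77 CPM in WT libraries (-0.29, standard error 0.18). The genotypes overlapped for both.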

How the data were processed

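Total RNA was sequenced from single ends with a stranded total RNA kit, per the labels' protocols. Per the submitters' processing notes the tools were HISAT2 2.1.0, featureCounts and edgeR 3.20.1, with build mm10. The sources used here do not give the annotation release, use of strand, handling of reads with several matches or form of normalization. For 53927 genes the authors deposited a signal per library, in CPM scaled to an effective library size. The authors' log2 fold changes and log2 CPM, likelihood ratio score, p-value and FDR are in the same table and are quoted only as such.

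The test was limma 3.58.1 (R 4.3.3) with trend, on log2(CPM + 1), with genotype alone, over the 14884 genes that reached 0.5 CPM in 2 or more libraries. Two-sided p-values were Benjamini-Hochberg adjusted and called under 0.05. Fold changes on this scale understate those of low genes. The fit was also run on simulated data, whose outcome is not given here and is not used as support. Low values lie on steps of 1 read, which gave the depths, and floors of 3 reads cover counting error only. No count model was run, because the deposited values are rounded CPM and not counts. Levels per kb use GENCODE M21 exon unions (44 of 45 table entries matched, Rtl1 having 2 entries).

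Values by library are given for members with an unadjusted p under 0.05, members without overlap at 1 CPM or more, the 5 with the highest mean CPM (not per kb), and the measured members of the Cdkn1c, Meg3 and Peg3 clusters. From each other list the 4 genes with the smallest p are named, and other genes by ranges. Members, lists and rules were chosen with earlier results of these data known. Alternatives covered scaling, pseudocount, filter, a replicate block, a sex term and leaving out each library.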

Additional observations from a re-analysis of the deposited data

How the results depend on the processing

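No member was called under any alternative except 1 under the replicate block. The replicate numbers 1 and 2 occur in both genotypes, and deviations from the group means correlated with r = 0.414 and 0.537 over 14884 genes. With only 2 such pairs and no label that ties them, the numbers were not taken to pair the libraries. With the number as a replicate block, 1 member was called higher in KO, Cdkn1c (log2 fold change 0.79, limma adjusted p = 0.0297). Replicate 3 occurs only in KO, so under the block that library adds nothing to the genotype estimates. The block estimates equal those without KO replicate 3, where Cdkn1c was also at 0.79 and no member was called. Under that block 1 imprint maintenance gene was called, the member median was 0.15, and Gnas (0.06) and Mkrn3 (0.09) turned positive. Limma adjusted p was lower than in the main fit for other members too, such as Rian (0.0557) and Meg3 (0.0872). The share of all genes called under the block is not given here, so these calls have no background beside them.

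The member median was 0.08 with median-of-ratios size factors, -0.04 with scaling without mitochondrial genes (all genes -0.10), 0.05 with no filter, 0.12 with at least 1 CPM in 3 libraries, and 0.05 to 0.15 with a library left out. Members with every KO library below WT numbered 0 with size factors, 2 with scaling without mitochondrial genes and 2 with no filter, and members with every KO library above numbered 1 with that scaling. For these alternatives the share of all genes without overlap is not given here, so the member counts have no background beside them. With a library left out, fewer libraries can overlap, so those counts are not comparable with the shares given above for all libraries. The count above was then 7, 5 and 10 without KO replicate 1, 2 or 3 and 12 and 10 without WT replicate 1 or 2, and the count below 3, 1, 5, 3 and 5 in the same order. Scaling without mitochondrial genes turned Nap1l4 (-0.04), Usp29 (-0.04), Nnat (-0.04), Blcap (-0.09) and Trappc9 (-0.11) negative, and a sex term gave Trappc9 -0.01 and Mkrn3 0.00. The scaling without mitochondrial genes lowered the median over all genes from 0.01 to -0.10. The members it turned had log2 fold changes of 0.02 to 0.10 in the main fit. No further cause of these turns was tested.

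Leaving out a library turned the sign of 15 members. The log2 fold changes ran from -0.20 to 1.09 for Meg3, -0.33 to 0.03 for Airn, -0.06 to 0.15 for Blcap, -0.25 to 0.20 for Gnas, -0.29 to 0.27 for Mkrn3, -0.40 to 0.15 for Slc22a18, -0.03 to 0.33 for Peg3, -0.07 to 0.24 for Usp29, -0.29 to 0.49 for Nnat, -0.25 to 0.21 for Sgce, -0.28 to 0.02 for Peg13, -0.25 to 0.03 for Zim1, -0.21 to 0.02 for Ube3a, -0.12 to 0.02 for Zrsr1 and -0.07 to 0.13 for Trappc9. Of 37 members, 21 kept their sign under every alternative run, Cdkn1c, Peg10, Rian, Mirg and Dlk1 among them. Depth limits most the 7 unmeasured members, with 6 reads at most in a library, and Slc22a18, with 23 at most. Counting error was not set against the spread between libraries in the others.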
